A study of Mus musculus with 8 samples.

Results

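The comparison described here sets 24 h of METTL3 depletion against 8 h in day 6 organoids of mouse retina. It covers 11278 genes out of 28907 that had a unique name in both deposited tables (39%). A gene entered when its estimate was marked as valid at every time and its level reached 1 FPKM (fragments counted per kilobase of transcript and corrected for depth) and 10 estimated counts at 8 h or at 24 h. All groups shared a genotype: an Rx:GFP reporter line in which FKBP12F36V-HA had been added to the C-terminal end of both endogenous Mettl3 alleles. The groups were 0 h without dTAG-13, 8 h of dTAG-13 and 24 h of dTAG-13 at 125 nM, with 2 replicates each, and all cultures had been differentiated in medium holding a compound labelled AGN. The labels name a single cell line and no untagged line, so an effect of dTAG-13 apart from METTL3 loss cannot be told apart from the depletion. All groups are labelled day 6, and 0 h is the only untreated group. Differences between groups in culture time or handling thus cannot be told apart from the time of depletion.

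METTL3 is the catalytic subunit of the complex that writes N6-methyladenosine (m6A) on messenger RNA. m6A is read by YTH domain proteins and shortens the life of many transcripts, and it is laid down mostly in long exons and near stop codons because exon junctions keep the writer away. The FKBP12F36V tag lets dTAG-13 direct the fusion protein to degradation. Retinal progenitors arise from an eye field marked by transcription factors such as RAX, LHX2, SIX3 and PAX6, and their dorsal, ventral, nasal and temporal identities are set by signals that include BMP, sonic hedgehog and retinoic acid.

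Each deposited table held 1 value per gene and time, pooled over both replicates, so no spread between replicates and no p-value could be given. The error of a level was the lower and upper bound deposited with it. A gene was called changed when its levels differed at least 1.5-fold (0.1 FPKM added to every level, each treated level divided by the 0 h level of its own table) and the deposited bounds of the 2 times did not overlap. The standard error (SE) given with a log2 ratio came from the deposited count variances. Estimated counts summed to 32386428 at 8 h and 31361518 at 24 h. The retinal progenitor markers Rax, Six3, Six6, Pax6 and Lhx2 were present at 49.5 to 142 FPKM at 0 h, while the surface ectoderm markers Krt5 and Krt14 were at 0. Tested genes of the surface ectoderm and lens list ran from 1.87 (Grhl3) to 23.7 FPKM (Krt18) at 0 h, so these 2 markers do not show that such cells were absent. The 4 pluripotency markers were also present and summed to 84.7, 78.5 and 78.8 FPKM. In bulk RNA, fewer cells of a type and less RNA per cell cannot be told apart. The Mettl3 transcript, on which the degron does not act, stood at 19.4, 19.4 and 17.0 FPKM at 0, 8 and 24 h with overlapping bounds; its locus overlaps Rab2b and Tox4.

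Few genes moved between 8 and 24 h. Of the 11278 genes, 61 were called (0.541%): 21 were higher at 24 h (0.186%) and 40 were lower (0.355%). In the same genes, 8 h against 0 h gave 511 calls (4.53%), with 434 higher (3.85%) and 77 lower (0.683%), and 24 h against 0 h gave 620 calls (5.5%), with 461 higher (4.09%) and 159 lower (1.41%). The log2 ratio of 24 h to 8 h had a median of -0.01 and quartiles of -0.12 and 0.09. Within 1.25-fold of their 8 h level lay 9948 genes (88.2%). The standard deviation of the ratio across genes was 0.25, against a median SE of 0.21 for a single gene, so most of the measured differences were of the size of the deposited error. In all, 397 genes (3.52%) passed 1.5-fold, and 336 of them had bounds that overlapped, 249 of these under 5 FPKM.

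The called genes were sorted by their path from 0 h. For 4 genes the change seen at 8 h went on in the same direction by 24 h (progressed). For 7 genes it was undone in part or in full (reverted). A change first called at 24 h, and called against 8 h as well, was seen in 36 genes (appeared), 11 of them higher and 25 lower. The other 14 genes were called only between 8 h and 24 h, 7 in each direction. No gene was called in opposite directions against 0 h at the 2 times. The 8 h level enters both the 8 h to 0 h and the 24 h to 8 h ratio, so its error moves genes toward reversal.

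**Figure D1:**
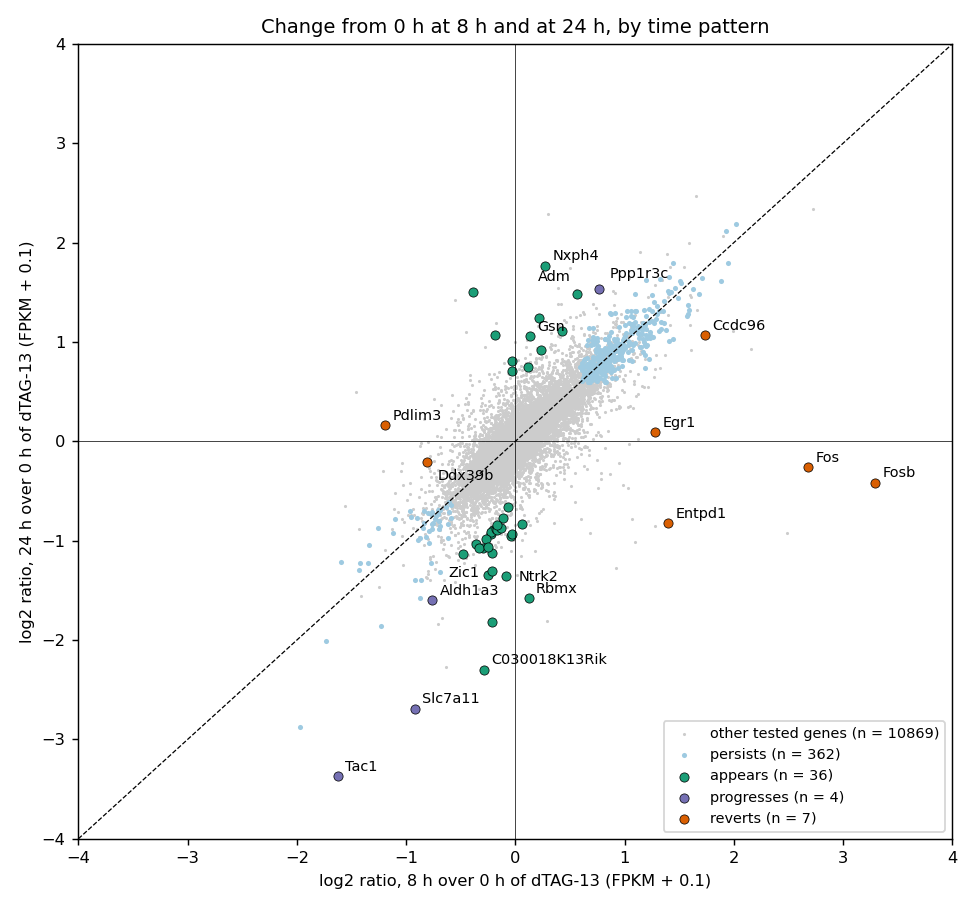
Log2 ratio of 24 h to 0 h (vertical axis) against log2 ratio of 8 h to 0 h (horizontal axis) for the 11278 genes, each point a gene, coloured by time pattern. Both axes share the 0 h levels. Most points lie near the diagonal, where 24 h equals 8 h; Fos and Fosb lie at the right near the horizontal zero line, and Slc7a11 and Tac1 lie below the diagonal at the left.

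Immediate early genes made up 3 of the 5 genes that reverted after a rise: Fos, Fosb and Egr1 were high at 8 h and near their 0 h level by 24 h. These genes encode transcription factors that are induced within minutes by growth factor and stress signals and whose transcripts decay fast; FOS and FOSB are partners of JUN in AP-1. Fos (chromosome 12, 85473890 to 85477273, plus strand, GRCm38, 4 exons) measured 3.73 FPKM (bounds 2.54 to 4.91) at 0 h, 24.5 (18.1 to 30.8) at 8 h and 3.10 (2.16 to 4.05) at 24 h. The 8 h level stood apart from both others, and the 0 and 24 h bounds overlapped. Fos was thus 7.69-fold lower at 24 h than at 8 h, a log2 ratio of -2.94 (SE 0.25).

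Fosb (chromosome 7, 19302696 to 19310051, minus strand, 4 exons) went from 0.304 FPKM at 0 h to 3.86 (2.91 to 4.80) at 8 h and 0.203 (0.0426 to 0.363) at 24 h, a 13.1-fold fall from 8 h. Its 0 h and 24 h levels rested on 34.2 and 27.5 estimated counts. Egr1, a zinc finger factor of the same response, had 6.54, 16.1 and 6.99 FPKM at 0, 8 and 24 h, with 12.7 to 19.4 as its bounds at 8 h and 5.44 to 8.55 at 24 h. It fell 2.29-fold from 8 h to 24 h. Of 24 tested, 3 were called lower, 1 was called higher (Ier3) and 20 were not called, with a list median of 0.07 (0.01 to 0.17 over the alternatives) against -0.01 for all tested genes. Over all tested genes, 0.355% were called lower and 0.186% higher. Jun had 12.3, 15.5 and 13.2 FPKM, Dusp1, a phosphatase that turns off MAP kinases, had 9.84, 14.1 and 12.1, and Nr4a1 had 4.85, 5.27 and 6.89.

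The promoter of Fos is shown because Fos had the second largest fall of the 61 called genes. It covers chr12:85473640-85473939 on the plus strand (RefSeq, GRCm38), from 250 bases before the start site to 50 bases after it. Capitals mark the cyclic AMP response element core TGACGT, which begins 66 bases before the start, and the TATA box TATAAA, 33 bases before it.
Fos: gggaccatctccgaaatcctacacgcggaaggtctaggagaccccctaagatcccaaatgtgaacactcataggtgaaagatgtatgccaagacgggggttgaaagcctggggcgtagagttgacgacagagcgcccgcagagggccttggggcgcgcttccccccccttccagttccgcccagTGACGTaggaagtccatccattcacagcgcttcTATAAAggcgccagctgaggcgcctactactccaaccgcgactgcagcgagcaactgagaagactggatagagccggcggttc
TGACGT was searched on both strands and stood in 13.5% of the 8849 tested genes with a promoter in the table, and in 7.51% of all 32851 promoters of that length. The first share counts a gene when any of its promoters holds a match and the second counts each promoter, so they are not alike. A match is a description of the letters and not evidence of binding.

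The other reverting genes were of mixed kinds. Pdlim3, which encodes a muscle protein that binds alpha-actinin, fell and came back: 1.82 FPKM (1.14 to 2.51) at 0 h, 0.744 (0.361 to 1.13) at 8 h and 2.06 (1.30 to 2.82) at 24 h. Its 24 h level was 2.55-fold above 8 h and overlapped 0 h. Ddx39b, an RNA helicase of splicing and mRNA export, measured 253 (205 to 302), 144 (116 to 173) and 221 (177 to 264) FPKM, and so regained most of its 0 h level. Its rise of 1.52-fold from 8 h was close to the limit, and its estimated counts gave a log2 ratio of 0.55, just below that limit. Ccdc96, a coiled-coil protein of cilia, came down only in part, with 1.34, 4.68 and 2.92 FPKM and a 24 h level still called above 0 h. Entpd1, an ectonucleotidase, had 2.95, 7.94 and 1.63 FPKM but 80.1, 103 and 117 estimated counts. Its fall stood in FPKM only, with a log2 ratio of 0.20 in counts.

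Changes that went on were led by falling genes. Slc7a11 encodes the cystine importer that feeds glutathione synthesis (chromosome 3, 49892526 to 50443614, minus strand). It measured 2.43 FPKM (1.83 to 3.02) at 0 h, 1.24 (0.899 to 1.58) at 8 h and 0.293 (0.130 to 0.455) at 24 h, with all 3 bounds apart. The step from 8 to 24 h was 3.42-fold, a log2 ratio of -1.77 (SE 0.30), and the estimated counts went from 378 to 87.5. Tac1, the precursor of substance P and neurokinin A (chromosome 6, 7554879 to 7565834, plus strand), had 12, 3.83 (2.26 to 5.41) and 1.08 (0.196 to 1.96) FPKM and was 3.35-fold lower at 24 h than at 8 h. Only 22.8 estimated counts remained at 24 h, and the SE of its log2 ratio was 0.53.

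Aldh1a3 makes retinoic acid in the ventral optic cup (chromosome 7, 66390890 to 66427517, minus strand, 13 exons). Its levels of 37.7 (30.4 to 45.1), 22.3 (17.8 to 26.8) and 12.4 (9.50 to 15.4) FPKM fell in similar steps, by 1.79-fold between 8 and 24 h. Ppp1r3c, a glycogen-targeting subunit of protein phosphatase, was the 1 gene that progressed upward (chromosome 19, 36731731 to 36736653, minus strand, 2 exons). It measured 3.53 (2.68 to 4.39), 6.07 (4.72 to 7.42) and 10.5 (8.26 to 12.7) FPKM.

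**Figure D2:**
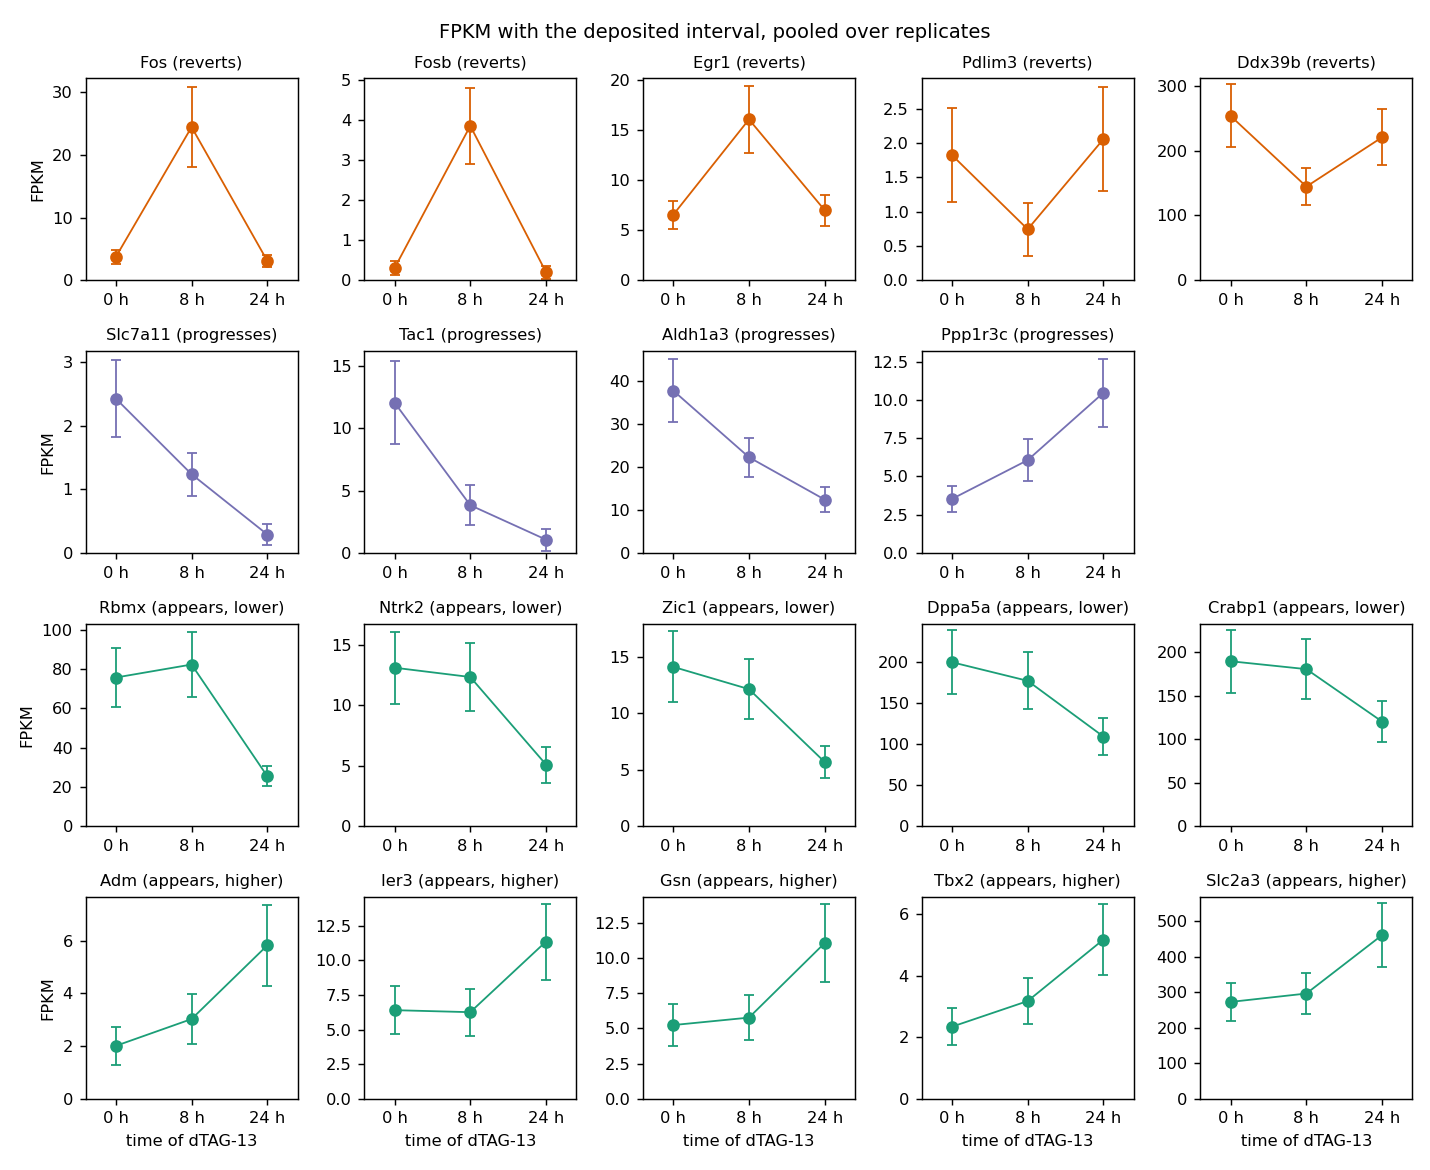
FPKM (vertical axis, from 0) at 0, 8 and 24 h of dTAG-13 for 19 called genes, grouped by time pattern; points are values pooled over 2 replicates and bars the deposited bounds. Fos, Fosb and Egr1 peak at 8 h, Slc7a11, Tac1 and Aldh1a3 step down at both times, and genes such as Ntrk2 or Adm leave their 8 h level by 24 h.

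The 25 genes first called lower at 24 h were of mixed kinds. Ntrk2, which encodes the BDNF receptor TrkB (chromosome 13, 58806569 to 59133970, plus strand), held at 13.1 (10.1 to 16.1) and 12.4 (9.56 to 15.2) FPKM at 0 and 8 h and measured 5.09 (3.60 to 6.59) at 24 h. That is 2.41-fold below 8 h, a log2 ratio of -1.27 (SE 0.21). Zic1, a zinc finger factor of dorsal neural tissue (chromosome 9, 91358058 to 91365810, minus strand), had 14.1, 12.1 (9.47 to 14.8) and 5.67 (4.24 to 7.11) FPKM. Syt1, the calcium sensor of synaptic vesicles, had 9.56, 8.04 and 3.73 FPKM. In these 3 genes the 0 and 8 h bounds overlapped and the 24 h level stood below them.

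Hmx1, a homeobox factor of the nasal retina, fell to 24.5 FPKM at 24 h from 50 at 0 h and 38.9 at 8 h. Chrdl1, a BMP antagonist of the ventral retina also called Ventroptin, had 9.96, 8.53 and 5.20 FPKM. Wnt8b, a Wnt ligand of the forebrain, had 4.17, 4.36 and 2.31, and Dkk3, a secreted protein of the Dickkopf family, had 30.8, 22 and 14. Crabp1, which binds retinoic acid in the cytoplasm, was abundant and went from 189.6 and 181 FPKM to 120.1. Dppa5a, a gene of pluripotent cells, went from 199.7 and 177 to 109, and the cartilage collagen Col9a1 from 49.9 and 42.8 to 26.5. Each of these genes had bounds at 24 h below those at 8 h. Among low genes, the long noncoding RNA C030018K13Rik had 4.24, 3.45 and 0.787 FPKM, and Ly6a, a surface antigen of stem and progenitor cells, had 3.74, 3.21 and 0.995 with 19.9 estimated counts at 24 h.

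A 3.25-fold fall was that of Rbmx, an RNA-binding splicing regulator on chromosome X (57383530 to 57393036, minus strand, 9 exons). It had 75.8 (60.7 to 90.9), 82.5 (65.7 to 99.2) and 25.4 (20.2 to 30.6) FPKM. Its near-identical retrocopy Rbmxl1 had 111, 185 and 199.6 FPKM, and the sum of both was 186, 268 and 225. How the counting split reads between the pair is not given in the sources used here, so the fall of Rbmx is uncertain.

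Of the 11 genes first called higher at 24 h, 3 are members of the hypoxia list. Adm, the vasodilator peptide adrenomedullin (chromosome 7, 110627661 to 110629820, plus strand), had 2.01 (1.28 to 2.74), 3.02 (2.08 to 3.97) and 5.82 (4.29 to 7.35) FPKM. Ier3, a stress-induced regulator of cell survival, stayed at 6.40 and 6.26 FPKM and then reached 11.4 (8.61 to 14.1). Slc2a3, the neuronal glucose transporter GLUT3, had 273 (219 to 326), 296 (239 to 354) and 461 (369.9 to 551) FPKM. The 24 h level was the highest in each, by 1.89-fold, 1.80-fold and 1.55-fold over 8 h.

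Other genes called higher at 24 h against 8 h were of mixed kinds. Gsn, the actin-severing protein gelsolin, had 5.23, 5.76 (4.15 to 7.37) and 11.1 (8.29 to 13.8) FPKM. Tbx2, a T-box factor of the dorsal eye, had 2.34, 3.18 (2.43 to 3.93) and 5.18 (4.02 to 6.34). Col6a1, a chain of collagen VI, had 0.543, 0.649 and 1.43, and Col6a2, which was not called against 0 h, had 1.63, 1.41 and 2.48. Scg5, a chaperone of neuroendocrine secretory granules, had 9.97, 9.75 and 16.4 FPKM, with a log2 ratio of 0.58 in counts, just below the limit. Zmat1, a zinc finger gene, had 0.563, 0.481 and 1.30. Nxph4, which encodes a neurexophilin, was low throughout at 0.434, 0.546 and 1.72 FPKM, with 20.5, 25.8 and 80.1 estimated counts. Tmem63a, a mechanosensitive channel, had the highest ratio (1.01, 0.749 and 3.06 FPKM, a log2 ratio of 1.89), but its counts of 90.8, 77.0 and 79.6 gave a log2 ratio of 0.06, so its rise stood in FPKM only.

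The 14 genes called only between 8 and 24 h had an 8 h level that was the lowest of the 3 times (7 genes) or the highest (7 genes). Myl9, a regulatory light chain of contractile myosin, had 30.9 FPKM at 0 h, 20.5 (14.2 to 26.8) at 8 h and 36.6 (28.8 to 44.4) at 24 h. Thbs1, the matrix protein thrombospondin, had 12.8, 10.5 and 18.4 FPKM, Aldoc, a glycolytic aldolase, had 6.75, 6.07 and 11, and the protease inhibitor A2m had 3.11, 2.2 and 3.65. In the other direction, Rmst, a long noncoding RNA of neural progenitors, had 7.51, 18.4 (9.29 to 27.4) and 4.12 (1.90 to 6.34) FPKM. Its estimated counts of 399, 335 and 188 did not share the peak at 8 h. Tmem132e, a transmembrane protein, had 1.25, 2.66 and 0.879, and Cavin3, a coat protein of caveolae, had 0.669, 1.07 and 0.350 with 16.1 estimated counts at 24 h. Gm14327 had 3.56, 5.79 and 1.83, and its locus overlaps the expressed Zfp972.

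The hypoxia list, targets of the factor HIF, held 4 of the 21 genes that rose. Of 37 tested, 4 were higher at 24 h than at 8 h (Adm, Ier3, Slc2a3 and Ppp1r3c) and none was lower, against 0.186% and 0.355% of all tested genes. The list median was 0.25 and 29 of 37 members were above 0, against a median of -0.01 and 46.5% above 0 for all tested genes. Among members that were not called against 8 h, Bhlhe40, a circadian repressor, had 9.47, 14.4 and 21.1 FPKM, and Loxl2, a lysyl oxidase, had 24.1, 24.3 and 35.5. Bhlhe40 was called above 0 h at 24 h, and Loxl2 was not called at any comparison. Some of the best known targets were near their 8 h level: Vegfa had 40.5, 39.8 and 39.6 FPKM and Slc2a1, the glucose transporter GLUT1, had 326, 312 and 308. In the glycolysis list, 1 of 18 members was called (Aldoc, higher), the median was 0.13 and 17 members were above 0. For example, Ldha, which makes lactate, had 1036, 792 and 977 FPKM, with a 24 h level that did not exceed that at 0 h.

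Promoters of 3 of these risers are shown for the core of the hypoxia response element, ACGTG, searched on both strands and marked in capitals (CACGT where it lies on the other strand). They run from 250 bases before to 50 after the start site and come from RefSeq on GRCm38: chr19:36736555-36736854 on the minus strand for Ppp1r3c, chr17:35821463-35821762 on the plus strand for Ier3, and chr11:78322823-78323122 on the plus strand for the first of 2 Aldoc promoters. Ppp1r3c holds 3 matches, of which 2 overlap as the palindrome CACGTG, and Ier3 and Aldoc hold 1 each. The Aldoc match begins 27 bases after the start site. All 3 promoters shown hold a match, so they do not stand for the risers as a set. The other Aldoc promoter holds none, and neither does that of Adm, which is not shown.
Ppp1r3c: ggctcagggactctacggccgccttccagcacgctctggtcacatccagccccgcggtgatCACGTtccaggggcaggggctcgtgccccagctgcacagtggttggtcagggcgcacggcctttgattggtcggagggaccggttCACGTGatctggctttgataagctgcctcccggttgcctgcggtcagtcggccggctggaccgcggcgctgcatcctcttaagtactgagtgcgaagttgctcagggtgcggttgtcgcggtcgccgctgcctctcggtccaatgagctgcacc
Ier3: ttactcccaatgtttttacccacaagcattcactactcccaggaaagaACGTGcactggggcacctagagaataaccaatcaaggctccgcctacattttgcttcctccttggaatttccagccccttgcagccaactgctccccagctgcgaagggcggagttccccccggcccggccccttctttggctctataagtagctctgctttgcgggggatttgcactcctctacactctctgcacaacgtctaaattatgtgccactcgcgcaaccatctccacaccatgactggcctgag
Aldoc: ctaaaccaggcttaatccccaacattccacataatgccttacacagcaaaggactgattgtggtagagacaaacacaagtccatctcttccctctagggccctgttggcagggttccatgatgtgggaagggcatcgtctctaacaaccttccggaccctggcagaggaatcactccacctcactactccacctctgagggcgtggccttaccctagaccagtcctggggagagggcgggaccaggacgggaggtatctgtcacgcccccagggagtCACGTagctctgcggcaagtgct
ACGTG stood in the promoters of 20 of the 29 hypoxia members with an entry (69%), in 30.1% of the 8849 tested genes with an entry and in 19.6% of all promoters. A gene counted when any of its promoters held a match, whereas the share of all promoters counts each promoter, so the 2 kinds of share are not alike. The share of the hypoxia members is a description of a list chosen with earlier results known. Among the 15 called risers with an entry, 5 held it: Ppp1r3c, Ier3, Aldoc, Ddx39b and Scg5. That is 33.3%, near the 30.1% of tested genes with an entry. Slc2a3 had no entry.

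Lists with a median below 0 included those of amino acid stress, endoplasmic reticulum chaperones, Wnt and retinoic acid. In the list of targets of ATF4, a factor that turns on amino acid supply when it is short, 2 of 30 tested members were called lower (Slc7a11 and the arginine transporter Slc7a1, with 14.7, 13.5 and 8.01 FPKM) and none higher. The median was -0.21 and 26 members were below 0, against 0.355% called lower, 0.186% called higher and a median of -0.01 for all tested genes. Atf4 itself had 90.5, 99.0 and 76.6 FPKM, and the serine synthesis enzyme Phgdh had 135, 87.8 and 69.0; neither was called against 8 h. None of 19 endoplasmic reticulum chaperones and partners was called, yet all 19 were below 0, with a median of -0.23. The master chaperone Hspa5 had 505, 580 and 499 FPKM and Herpud1, a factor of ER-associated degradation, had 22.2, 18.7 and 12.

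In the Wnt list, 2 of 28 were lower (Wnt8b and Dkk3), with a median of -0.18 and 23 members below 0. Axin2, the feedback inhibitor and usual readout of the pathway, had 5.32, 5.03 and 4.22 FPKM and was not called. In the retinoic acid list, 2 of 13 were lower (Aldh1a3 and Crabp1), with a median of -0.30, against 0.355% lower and a median of -0.01 for all tested genes. At 5 FPKM or more that list median was -0.06, and with no filter it was also -0.06. Stra6, the retinol importer, had 19.8, 17.4 and 9.11 FPKM without being called against 8 h, while Crabp2 had 448, 392 and 429. The compound labelled AGN was in all cultures, and its part in this list was not tested.

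The eye field list was split. Of 22 members, Tbx2 was higher, Zic1 and Hmx1 were lower, and the median was 0.01, with 11 members on each side of 0. The sign of this median was not stable under other settings. Over all tested genes, 0.186% were called higher and 0.355% lower. Lhx2 had 142, 204 and 231 FPKM, Rax 49.7, 67.1 and 78.6, and Pax6 126, 127 and 131. None of these 3 was called between 8 and 24 h. The 4 markers of retinal pigment epithelium, a neighbouring tissue of the eye, summed to 59.5, 76.3 and 96.4 FPKM, mostly through Pmel (28.8, 37.9 and 60.3), while Tyr, the enzyme that defines pigment synthesis, was at 0, 0.00742 and 0.0213. Pmel was not called at any comparison, and its locus overlaps Cdk2 and Dgka. Its bounds overlapped, with 19.6 to 56.1 at 8 h and 35.6 to 85.0 at 24 h. The 3 neural crest markers summed to 1.26, 1.03 and 1.69 FPKM and the 4 mesoderm markers to 26.1, 22 and 19.1, mostly Kdr. The part of these cells in the changes of the eye genes was not tested.

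In the m6A machinery, none of 10 members was called between 8 and 24 h, with a median of -0.07 (-0.08 to -0.02 over the alternatives). Of these, Ythdf2, a reader that promotes decay, had 42.6, 98.7 and 83.8 FPKM, Ythdf1 had 44.8, 87.5 and 81.2, and Wtap, an adaptor of the writer, had 56.9, 119 and 108. All 3 were still called above 0 h at 24 h. Among 22 p53 targets, none was called, and 19 were above 0 with a median of 0.09: Cdkn1a, the cell cycle inhibitor p21, had 48.1, 20.1 and 26.4 FPKM and remained called below 0 h. In the pluripotency list, Dppa5a alone of 24 was called, and the median was -0.07. The 294 zinc finger genes with Zfp names gave 2 calls, Zfp946 and Zfp599, both lower, and a median of -0.03 (-0.03 to -0.01 over the alternatives). Over all tested genes, 0.355% were called lower, and so few calls are no result about a list.

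**Figure D3:**
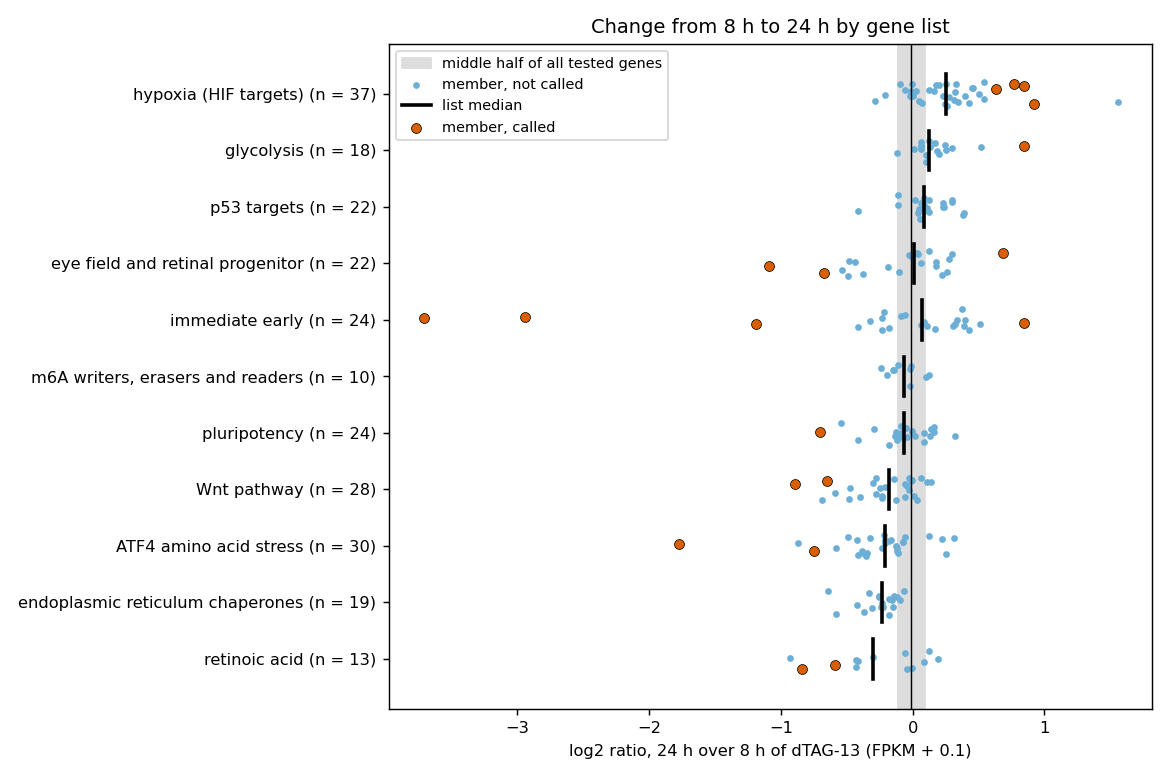
Log2 ratio of 24 h to 8 h (horizontal axis) for the members of 11 gene lists; each point is a gene, larger outlined points are called genes, the black bar is the list median, and the grey band spans the quartiles of all 11278 genes (-0.12 to 0.09). The hypoxia list lies mostly to the right of 0 and the endoplasmic reticulum chaperones all lie to the left.

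Further lists gave single calls: Slc7a11 in the list of NRF2 and glutathione genes, Tac1 among the neuropeptide precursors, Col9a1 among the matrix genes and Rmst among the nuclear long noncoding RNAs, all lower. Over all tested genes, 0.355% were called lower, and a single call is no result about a list. In all, 35 of the 48 lists with a tested member had no call, with medians from -0.23 to 0.31. Among these, the 22 lists not described above with 10 or more tested members had medians from -0.12 to 0.28. The upper end was above the hypoxia median (0.24 to 0.26 over the alternatives). The median of the replication-dependent histones ran from 0.02 to 0.30 over the alternatives.

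The bulk of the 8 h response was still present at 24 h. The 434 genes called higher at 8 h had a median log2 ratio to 0 h of 0.84 at 8 h and 0.82 at 24 h, and 420 of them kept at least 0.5 of their 8 h log2 ratio. The 77 genes called lower had -0.80 and -0.77, and 69 kept at least that share. Of the higher genes, 276 were closer to 0 h at 24 h than at 8 h and 158 were farther away; because the 8 h calls chose these genes, some return is built in. The 0 h level enters both ratios, so its error moves them the same way and adds to the share kept. A change called at both times and not between them was seen in 362 genes, 313 higher and 49 lower. With examples picked afterwards by size, Rab33a, a small GTPase, had 0.767, 3.42 and 3.86 FPKM, Fkbpl, an immunophilin-like protein, had 7.30, 28.4 and 25.8, and Aunip, a partner of Aurora A, had 13.6, 42.4 and 39.9. Lower at both times was Slitrk1, a neuronal adhesion protein, with 3.08, 1.09 and 1.26.

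Most of the genes first called at 24 h were already past 1.25-fold in the same direction at 8 h. Of 146 genes called higher against 0 h at 24 h and not at 8 h, 128 were already at least 1.25-fold up at 8 h, and their median log2 ratio went from 0.56 to 0.80. Of 107 called lower, 74 were already 1.25-fold down, and the median went from -0.45 to -0.84. Over all tested genes the log2 ratio of 8 h to 0 h had a median of 0.02 and a standard deviation of 0.37. The 24 h calls chose these genes and the 0 h level enters both ratios, so some shift at 8 h is built in. Only 11 and 25 of these were called against 8 h, and the other 217 were not. Examples picked afterwards are the neurotrophin Ntf3 with 1.68, 2.90 and 5.18 FPKM, the neuroendocrine factor Insm1 with 0.560, 1.12 and 1.78, the channel Trpm3 with 11.1, 7.53 and 4.11, and the amino acid transporter Slc7a3 with 26.8, 18.4 and 12.3. A further 138 genes were called at 8 h only, without a call between 8 and 24 h.

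The ratio of 24 h to 8 h varied little with exon structure. Coding exon density (exon junctions per kilobase of coding sequence) was available for 10924 genes, sorted into 10 groups. From the lowest to the highest group the median log2 ratio to 0 h ran from 0.41 to -0.13 at 8 h, and from 0.37 to -0.11 at 24 h, while the ratio of 24 h to 8 h ran from -0.02 to 0.02. The Spearman rho across genes, which are not independent replicates, was -0.48 at 8 h, -0.40 at 24 h and 0.07 for 24 h against 8 h. The 638 genes with a single coding exon had medians of 0.40 at 8 h, 0.39 at 24 h and -0.01 between them. The 1093 genes of lowest density held 11 calls (2 higher, 9 lower) and the 1093 of highest density held 6 (3 and 3). Over all 11278 tested genes, 61 were called (0.541%). Groups between the ends varied, for instance 2 higher and 6 lower in group 5 and 2 and 0 in group 9. Called genes without a density are in none of the groups.

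**Figure D4:**
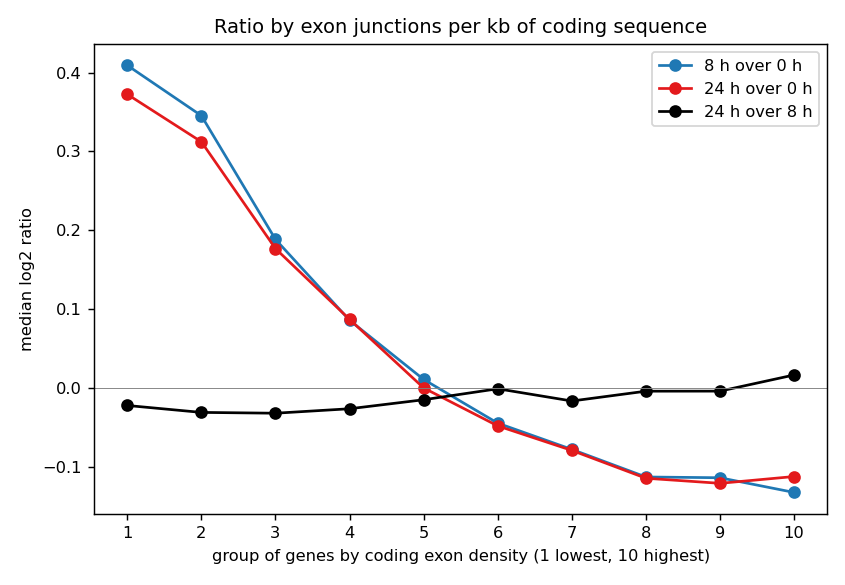
Median log2 ratio (vertical axis) in 10 groups of genes from the lowest to the highest coding exon density (horizontal axis), for 8 h over 0 h, 24 h over 0 h and 24 h over 8 h. The first 2 lines fall from about 0.4 to below 0 and the line for 24 h over 8 h stays near 0.

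The entry rule sat at 1 FPKM. Just inside it, Fgd3 had 1.004 FPKM at 8 h and 0.753 at 24 h; just outside, Il17rc had 0.9996 and 0.935. Of 12 joined genes left out because an estimate was not marked as valid, 6 would otherwise have passed, among them Igf2bp1 and Eef1a1.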

How the data were processed

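Polyadenylated RNA was sequenced from 2 replicates at each time. The authors deposited, per the file headers, tables of 0 h against 8 h and 0 h against 24 h with FPKM, lower and upper bounds and a status, and tables of estimated counts with variances. The submitters' processing notes name Cufflinks 2.2.1, Cuffdiff and mm10. The strandedness of counting is not given in the sources used here. The tables hold 1 column per time, so replicates could not be separated and no test was made across them.

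Each table was normalized on its own; the 0 h levels of the 2 tables differed by a factor of 1.0035 (range 1.00273 to 1.00442), which the division by 0 h removes. Of 35541 loci in each table, 4904 without a name, 637 with several names and 1093 that shared a name were left out of the comparison. Fold changes are on the log2(FPKM + 0.1) scale, which understates changes of low genes. The call needed 1.5-fold and deposited bounds apart. The half-width of the bounds was a median of 2.21 deposited standard deviations at 8 h, and the median coefficient of variation was 10.4% at 8 h and 10.6% at 24 h. Coordinates and exons came from GENCODE M21 (GRCm38) and promoters from RefSeq.

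The genes named by rule were the 15 highest and 15 lowest called, up to 6 per pattern, called members of lists, and Mettl3. One marker of the retinal progenitor list is not reported here. The members and lists were chosen with earlier results of these data known. The labels give all samples the same batch entry and speak of repeated rounds of library preparation, which cannot be told apart in pooled columns. Alternatives covered the pseudocount, fold limit, error rule, filter, estimated counts, 0 h division, centring and overlapping loci. Python 3.11.15, pandas 2.3.3, numpy 2.4.6, scipy 1.17.1 and matplotlib 3.10.9 were used.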

Additional observations from a re-analysis of the deposited data

How the results depend on the processing

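No paired analysis was possible because the deposited columns are pooled over replicates, and leaving out each replicate was not run for the same reason. The number of genes called at 24 h against 8 h was 61, and it depended on the error rule. A fold limit of 2 gave 21 (5 higher, 16 lower), with 0 progressing up, 1 progressing down, 1 reverting after a fall, 4 appearing higher, 7 appearing lower, and 90 and 8 persisting up and down. The limit of 1.5-fold alone, without the bounds, gave 397 (170 higher, 227 lower), with 12 and 12 progressing, 56 and 20 reverting after a rise and after a fall, 84 and 101 appearing, and 666 and 136 persisting. With 2 SE in place of the bounds there were 228 (86 higher, 142 lower), with 4 and 6 progressing, 29 and 9 reverting, 42 and 66 appearing, and 556 and 104 persisting. At 5 FPKM or more there were 37 (23 lower), with 1 progressing down, 3 and 1 reverting, 7 and 16 appearing, and 32 persisting down. With no filter, 8 genes reverted after a rise.

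Estimated counts in place of FPKM gave 51 calls, of which 43 were among the 61, left 1 gene reverting after a fall, and turned Entpd1 to a log2 ratio of 0.20; of the 46 named genes, Entpd1 and 11 others were no longer called. A pseudocount of 1 FPKM gave 49 calls, all among the 61. The remaining settings (pseudocount 0.01, no minimum count, no division by 0 h, centring, overlapping loci left out) gave 58 to 65 calls. The medians of the hypoxia (0.24 to 0.26), ATF4 (-0.21 to -0.20), chaperone (-0.24 to -0.22), Wnt (-0.23 to -0.14) and retinoic acid (-0.32 to -0.06) lists kept their sign under these settings, and that of the eye field list did not (-0.03 to 0.03). Of the 336 genes past 1.5-fold with overlapping bounds, 249 were under 5 FPKM.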

Other observations

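Some gene groups were put together only after the values were seen, and their counts are a description. Of 33 tested genes linked to the actin cytoskeleton and contractile fibres, 5 were called higher at 24 h than at 8 h (Pdlim3, Gsn, Myl9, Thbs1 and Tpm1) and none lower, against 0.186% and 0.355% of all tested genes. The group is loose: Thbs1 encodes a matrix protein and Srf, also in it, a transcription factor. The median log2 ratio was 0.12, with 28 above 0, against -0.01 and 46.5% above 0 for all tested genes. The group was built around called genes, so this says nothing beyond those genes. Tpm1, which encodes tropomyosin, had 276, 192 and 300.1 FPKM at 0, 8 and 24 h. Acta2, smooth muscle actin, had 46.8, 27.9 and 37.6, and Cnn2, a calponin, had 25.5, 15.8 and 23.6; both were called below 0 h at 8 h and not at 24 h.

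Genes that pattern the eye were grouped by region in the same way. Of 12 tested genes of ventral and nasal identity, 3 were called lower (Aldh1a3, Chrdl1 and Hmx1), the median was -0.42, and 2 were above 0, against 0.355% lower, a median of -0.01 and 46.5% above 0 for all tested genes. Vax2, a ventral homeobox factor, had 43.5, 64.7 and 46.2 FPKM, Smoc1, a BMP modulator, had 20.1, 17.1 and 11.7, and Pax2, a factor of the optic stalk, had 29.4, 32.4 and 24.5. Of 8 genes of dorsal identity, Tbx2 was called higher (0.186% of all tested genes were), 7 were above 0, and the median was 0.21. Tbx3 had 2.82, 4.47 and 5.61 FPKM. Bmp4, the dorsal signal, had 13 (1.90 to 24.1), 9.62 (6.49 to 12.7) and 14.6 (6.25 to 22.9) FPKM, with overlapping bounds. Its estimated counts of 485, 548 and 707 did not share the dip at 8 h.

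Among 2097 loci without a unique single name that passed the same filter, 11 were higher and 11 lower at 24 h against 8 h (1.05%). Of these calls, 17 were in loci without a name.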
